A study of Mus musculus with 4 samples.

Results

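The replication-dependent histone genes were compared between TT2 mouse embryonic stem cells that received control siRNA (n = 2) and cells that received siRNA against Hnrnpk (n = 2). The members were all rows of the deposited gene table whose symbol begins with Hist1h, Hist2h, Hist3h or Hist4h, which gave 67 of 22138 genes. They comprised 6 H1, 19 H2A, 18 H2B, 11 H3 and 13 H4 genes. By cluster, 55 belonged to Hist1 on chromosome 13, 9 to Hist2 on chromosome 3, 2 to Hist3 on chromosome 11 and 1 to Hist4 on chromosome 6.

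TT2 cells are from a C57BL/6xCBA embryo. They were cultured feeder-free in medium with serum and LIF, the cytokine that keeps such cells undifferentiated. Both groups were transfected with 100 nM siRNA, replated and transfected again with 50 nM after 24 hours; RNA was taken about 72 hours later. All 4 libraries share this treatment and differ in the target of the siRNA. Values are RPKM, reads scaled to transcript length and to library size, so levels of different genes can be compared per length. The labels name both removal of ribosomal RNA and poly(A) selection for these libraries, which was not resolved here. With 2 libraries a group, p-values measure only the spread between these libraries.

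Replication-dependent histones supply the proteins that package newly made DNA, and their genes are transcribed mainly in S phase. Their mRNAs are the classic exception to polyadenylation: the 3' end is a conserved stem-loop that the stem-loop binding protein SLBP recognises, and the pre-mRNA is cleaved after it by a complex that contains the U7 small nuclear RNP. When replication stops, the same stem-loop directs rapid decay of the message. A core particle holds H2A-H2B dimers and an H3-H4 tetramer, and H1 binds the linker DNA between particles. Many of the genes encode the same or nearly the same protein, so the family is a set of redundant copies that can be read apart only through their untranslated ends and silent differences.

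The stem-loops are shown because they are the feature that sets this family apart and because they fall into groups by histone type. A 16-base stem-loop was found in the longest GENCODE M21 transcript of 44 of the 67 members; several of the other 23 models end at the stop codon. Only 8 distinct sequences occurred. Capitals mark the 2 stem arms of 6 bases each and lower case the 4-base loop, written as DNA.
24 members of H1, H2A, H2B and H3: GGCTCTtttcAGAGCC
6 members of H1, H2B and H3: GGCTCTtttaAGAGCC
Hist2h2ac: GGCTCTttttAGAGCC
Hist1h3g: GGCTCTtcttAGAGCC
7 members of H4: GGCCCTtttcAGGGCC
Hist1h4i and Hist2h4: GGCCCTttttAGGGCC
Hist1h4b and Hist1h4j: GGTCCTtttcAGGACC
Hist1h4a: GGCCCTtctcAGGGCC

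The 12 H4 members with a stem-loop used 4 of these sequences, the 32 members of other types used the other 4, and 0 sequences were shared between H4 and the rest.

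Hnrnpk itself stood at 235.8 and 226.3 RPKM in controls against 67.99 and 70.51 RPKM in its own knockdown, and fell by 1.73 on the log2 scale (SE 0.0629; adjusted p = 6.59e-08, limma). Embryonic stem cell markers were abundant in all libraries: Pou5f1 averaged 294 RPKM in controls and 266 RPKM after Hnrnpk siRNA, and Zfp42 487 and 495 RPKM, neither called. Of the 9 stem cell markers 2 rose (Nanog and Dppa5a) and 3 fell, Sox2 among them. That is 55.6% called, against 67.2% of all tested genes (32.2% higher, 35.0% lower). The fibroblast genes Col1a2, Col3a1, Dcn and Lum were all under 0.1 RPKM in every library, while Col1a1 and Thy1 were higher in controls (2.57 and 6.05 RPKM) than after Hnrnpk siRNA (1.79 and 2.25 RPKM). Of the 6 trophectoderm genes 4 were tested and all 4 were called higher; the 6 together summed to 28.9 and 34.9 RPKM in controls against 63.1 and 68.1 RPKM, with the untested Elf5 lower (0.107 against 0.0657 RPKM). Of the 6 primitive endoderm genes listed, Dab2 was left out because its symbol matched more than a single row. Of the other 5, 3 were tested and all 3 were called higher. The 5 together summed to 3.42 and 3.47 RPKM in controls against 23.2 and 24.0 RPKM. Whether the libraries hold other cell types, and any part of such cells in the histone values, was not tested. Each library is a mixture of cells, so fewer cells in S phase and less histone RNA per cell cannot be told apart in what follows.

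Histone gene values were low in these libraries. The labels name poly(A) selection beside removal of ribosomal RNA, and such selection would lose most messages without a poly(A) tail. The values therefore need not give the level of histone mRNA in the cells. Whether the changes that follow concern only a polyadenylated part of it was not tested. The 67 members summed to 223.9 and 190.0 RPKM in controls against 191.0 and 200.9 RPKM with Hnrnpk siRNA. The control libraries stood on either side of the Hnrnpk siRNA libraries, so the summed level did not separate the groups (206.9 ± 24.0 against 196.0 ± 6.99, SD, n = 2 each). In comparison, the single gene H3f3b, which encodes the replication-independent variant H3.3 and makes a polyadenylated message, averaged 231 RPKM in controls.

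Of the 67 members, 51 averaged at least 0.5 RPKM over the 4 libraries and were tested. Their mean levels ran from 0.513 to 17.3 RPKM with a median of 3.27 RPKM, and 47 of the 51 lay below the median of all tested genes (9.38 RPKM). The other 16 were not tested. Of these, Hist1h2ao, Hist1h2ap, Hist1h2bq and Hist1h2br were listed at 0 in every library, and between 2.70% and 11.5% of the 50-base windows of their longest transcript occur in no other annotated gene. The remaining 12 averaged 0.00316 to 0.442 RPKM, among them the germ-cell histones Hist1h1t, Hist1h2aa and Hist1h2ba.

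Among the tested members, 8 were called higher and 10 lower after Hnrnpk siRNA, and 33 were not called (limma on log2(RPKM + 0.5), adjusted p under 0.05 over all genes). These 18 calls are 35.3% of the members tested, against 67.2% of the 12486 genes tested; over all genes 32.2% were called higher and 35.0% lower. The median log2 change was -0.04 over the members and -0.01 over all genes, and the median size of the change was 0.17 against 0.32. Only 2 members, Hist3h2ba and Hist1h2bc, were called with a change of at least 2-fold, a class that held 8.51% of all genes. In 31 of the 51 tested members the libraries of the groups did not overlap, against 84.7% of all genes. The median standard error was 0.104 over the members and 0.0803 over all genes; the part of this difference in precision in the lower share of calls was not tested.

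The balance of higher to lower calls depended on the processing and on single libraries. It was 13 to 9 after quantile normalization, 19 to 8 after removal of each library's trend on GC content, and 1 to 16 after removal of the trend on transcript length. Without control replicate 1 it was 14 to 9, without control replicate 2 it was 6 to 19, without Hnrnpk siRNA replicate 1 it was 2 to 8, and without Hnrnpk siRNA replicate 2 it was 2 to 10. The share of all tested genes called was 68.1%, 68.4% and 69.3% after quantile normalization and removal of the GC and length trends, and 65.4%, 68.4%, 55.8% and 54.5% with a library left out, so calls were fewer over all genes too without either Hnrnpk siRNA library. With a library left out, its group holds a lone library that is assumed to vary like the other group. Members are short and rich in GC, with a median GC content of 57.9% against 50.3% over all tested genes and a median exonic length of 539 bases against 4301. Of the 10 members called lower, 5 kept that call in all 13 alternatives that were run (Hist3h2ba, Hist1h2bc, Hist1h1b, Hist1h1e and Hist3h2a), whereas each of the 8 called higher lost the call in at least 1 alternative.

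**Figure D1:**
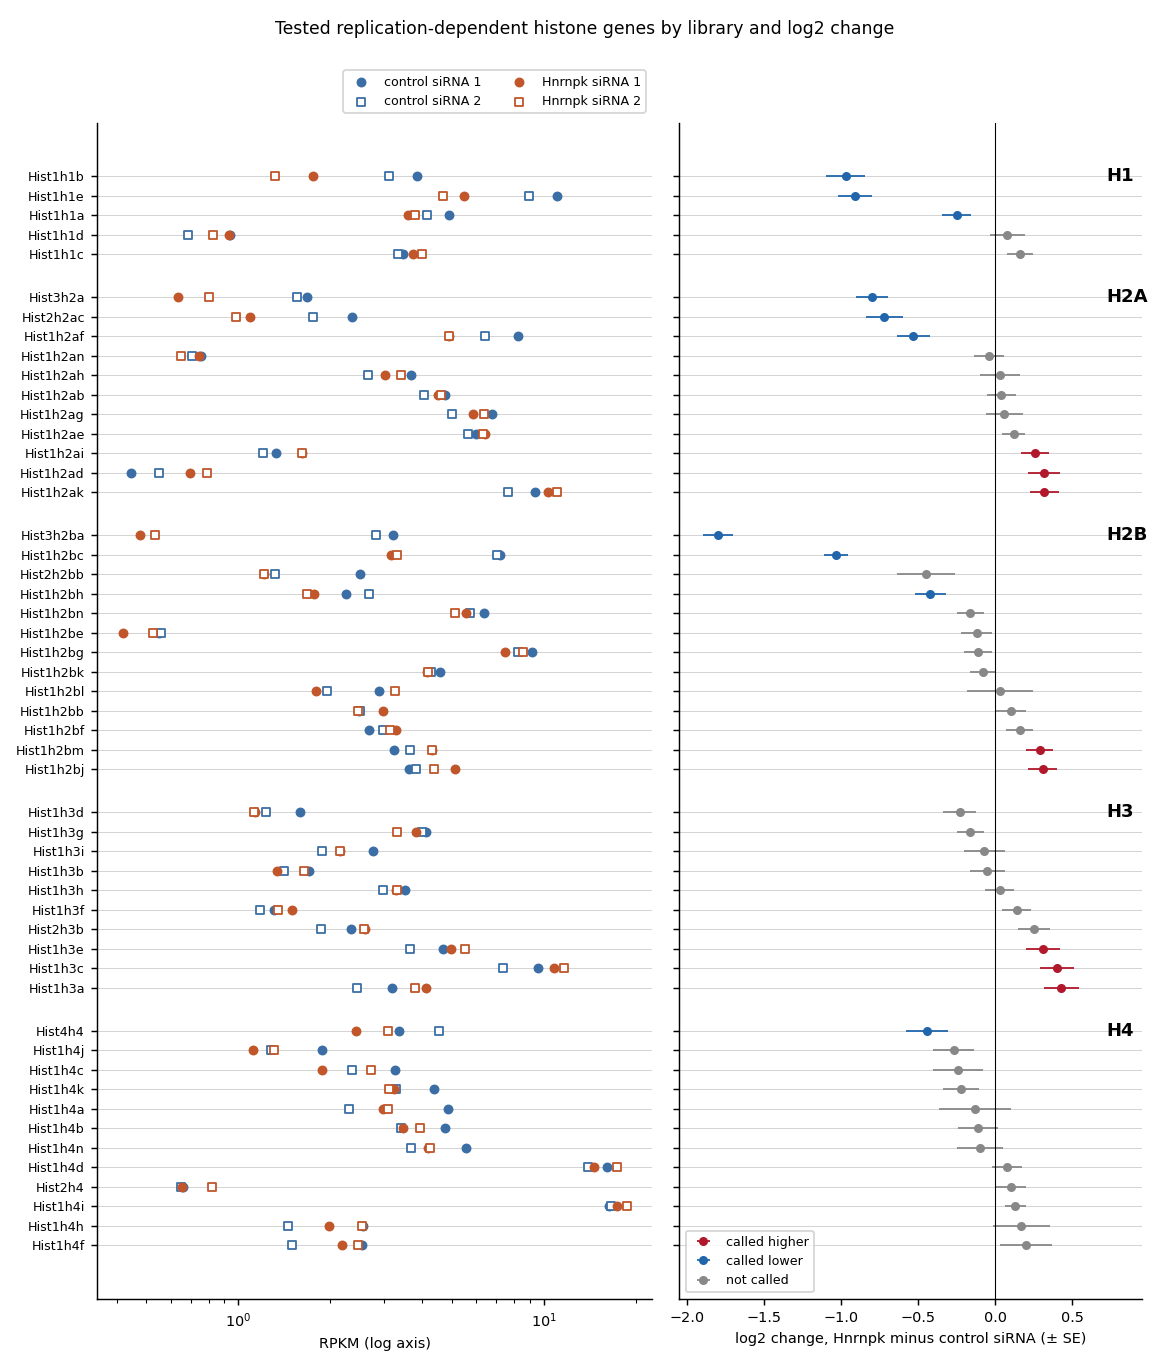
RPKM of each tested histone member in the 4 libraries (left, log axis) and its log2 change with standard error (right, Hnrnpk siRNA minus control on log2(RPKM + 0.5)), ordered within each histone type. The changes run from -1.80 for Hist3h2ba to 0.43 for Hist1h3a, and 33 of the 51 members were not called.

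**Figure D2:**
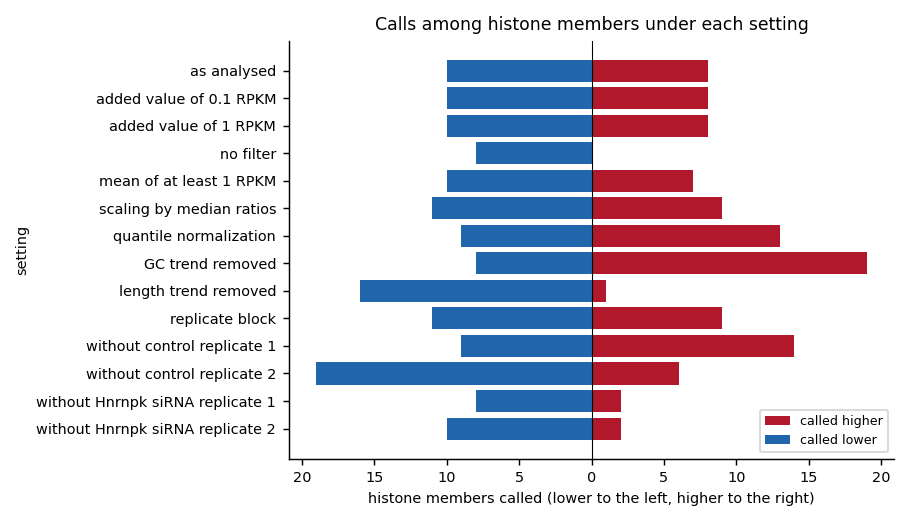
Number of histone members called lower (bars to the left) and higher (bars to the right) by limma under each processing setting. The 8 higher and 10 lower calls as analysed become 19 and 8 without the GC trend and 1 and 16 without the length trend.

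Linker histones were the type whose summed level was furthest below control. The 6 H1 genes summed to 24.4 and 20.4 RPKM in controls and 15.6 and 14.7 RPKM after Hnrnpk siRNA (22.4 ± 2.84 against 15.1 ± 0.631, SD, n = 2 each), a ratio of 0.674, and the groups did not overlap. Of the 5 tested members 3 fell and 0 rose, 60.0% called against 67.2% of all tested genes (32.2% higher, 35.0% lower). The median log2 change was -0.25, and it was below 0 under every setting run. An exact permutation test of 2 libraries against 2 cannot give a p under 0.333, so no test of the sum is given.

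Hist1h1e encodes an abundant somatic H1 and had the highest level of the type. It was measured at 11.03 and 8.95 RPKM in controls and at 5.47 and 4.67 RPKM after Hnrnpk siRNA, so both control libraries were above both others. It fell by 0.91 on the log2 scale (SE 0.109, limma adjusted p = 6.11e-05). Its M21 model shares 496 exonic bases on the same strand with the long 2-exon model of Hist1h2be, which was measured at 0.549 and 0.559 RPKM in controls and 0.418 and 0.526 RPKM after Hnrnpk siRNA and was not called. Leaving Hist1h1e out moved the ratio of the H1 sums from 0.674 to 0.808.

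Hist1h1b, another somatic H1, was measured at 3.85 and 3.11 RPKM in controls and 1.75 and 1.32 RPKM after Hnrnpk siRNA, again without overlap. It fell by 0.97 (SE 0.127, limma adjusted p = 1.07e-04), and all of its 50-base windows are unique to it. Hist1h1a went from 4.88 and 4.13 RPKM to 3.59 and 3.79 RPKM, a fall of 0.25 (SE 0.0946, limma adjusted p = 0.0374) that was lost in 6 of the 13 alternatives. The other tested genes of the type were not called: Hist1h1c gave 3.47 and 3.34 RPKM in controls against 3.73 and 3.998 RPKM, and Hist1h1d gave 0.939 and 0.683 RPKM against 0.934 and 0.825 RPKM. Within H1, then, 3 genes fell while the changes of Hist1h1c (0.16, SE 0.0833) and Hist1h1d (0.08, SE 0.116) were positive and not called.

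Among the H2A genes, 3 of 11 tested members rose and 3 fell, with a median log2 change of 0.04. The share called was 54.5%, against 67.2% of all tested genes. The 19 genes summed to 46.7 and 38.2 RPKM in controls and 40.8 and 42.6 RPKM after Hnrnpk siRNA, and the controls lay on either side of the other libraries. The 3 that fell include both H2A genes tested outside the Hist1 cluster. Hist3h2a went from 1.67 and 1.55 RPKM to 0.634 and 0.802 RPKM, without overlap, a fall of 0.80 (SE 0.103, limma adjusted p = 1.01e-04). Its M21 model shares 708 exonic bases on the same strand with Trim17, which was looked up after the values were seen and gave 0.9504 and 0.878 RPKM in controls against 0.365 and 0.440 RPKM (log2 change -0.65, limma adjusted p = 3.09e-04), so reads of these neighbours may not have been told apart.

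Hist2h2ac, the only member with its stem-loop sequence, was measured at 2.36 and 1.76 RPKM in controls and 1.09 and 0.983 RPKM after Hnrnpk siRNA, without overlap. It fell by 0.72 (SE 0.121, limma adjusted p = 5.07e-04), and its call was lost without the filter on low values. Hist1h2af gave 8.225 and 6.45 RPKM in controls and 4.90 and 4.91 RPKM after Hnrnpk siRNA, a fall of 0.53 (SE 0.106, limma adjusted p = 0.00167). The call of Hist1h2af was lost without the filter on low values (limma adjusted p = 0.0897). With the GC trend removed the change of Hist1h2af was -0.15 and was not called, and 20.3% of its 50-base windows are unique to it.

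Hist1h2ak had the highest H2A level, at 9.37 and 7.66 RPKM in controls and 10.3 and 11.1 RPKM after Hnrnpk siRNA. Both Hnrnpk siRNA libraries were above both controls, and it rose by 0.32 (SE 0.0963, limma adjusted p = 0.0149). Hist1h2ad, at 0.445 and 0.548 RPKM against 0.695 and 0.7895 RPKM, also rose by 0.32 (limma adjusted p = 0.0206), and Hist1h2ai, at 1.33 and 1.21 RPKM against 1.61 in both libraries, rose by 0.26 (limma adjusted p = 0.0310). All 3 calls were lost without the filter on low values and with the length trend removed.

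Of the 13 tested H2B genes, 2 rose and 3 fell, 38.5% called against 67.2% of all tested genes. The median log2 change was -0.11. The 18 genes summed to 51.5 and 48.2 RPKM in controls and 42.4 and 43.4 RPKM after Hnrnpk siRNA (49.9 ± 2.29 against 42.9 ± 0.656, SD, n = 2 each), a ratio of 0.860 without overlap. Most of the drop in the sum lay in Hist1h2bc and Hist3h2ba. Hist1h2bc averaged 7.115 RPKM in controls and 3.237 RPKM after Hnrnpk siRNA, and Hist3h2ba 3.009 and 0.506 RPKM. Hist3h2ba had the largest change of any member. It was measured at 3.20 and 2.82 RPKM in controls and 0.477 and 0.535 RPKM after Hnrnpk siRNA, which left 0.168 of the control level. It fell by 1.80 on the log2 scale (SE 0.0978, limma adjusted p = 5.96e-07); its change ran from -2.36 to -1.41 over the alternatives, the largest size with the smallest added value.

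Hist1h2bc was measured at 7.20 and 7.03 RPKM in controls and 3.17 and 3.30 RPKM after Hnrnpk siRNA, with close replicates in both groups. It fell by 1.03 (SE 0.0782, limma adjusted p = 3.79e-06). It has a model with 2 exons, whereas 61 of the 67 members have models with a single exon. No stem-loop was found in its longest transcript. That transcript does hold AATAAA, the usual polyadenylation signal, though not near its 3' end. Hist1h2bh, at 2.26 and 2.685 RPKM in controls and 1.76 and 1.67 RPKM after Hnrnpk siRNA, fell by 0.42 (SE 0.0989, limma adjusted p = 0.00417), a call lost without the filter on low values.

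Of the other H2B genes, Hist1h2bg had the highest level of the type, at 9.15 and 8.24 RPKM in controls and 7.47 and 8.58 RPKM after Hnrnpk siRNA, and its groups overlapped. Hist1h2bj rose by 0.31 (SE 0.0940, limma adjusted p = 0.0147) from 3.61 and 3.83 RPKM to 5.14 and 4.36 RPKM, and Hist1h2bm rose by 0.29 (SE 0.0871, limma adjusted p = 0.0150) from 3.235 and 3.66 RPKM to 4.30 and 4.32 RPKM. Hist2h2bb, whose identifier in the table is a lincRNA model in M21, gave 2.51 and 1.32 RPKM in controls against 1.21 and 1.22 RPKM; the controls differ by more than the groups do, and the change of -0.45 was not called (limma adjusted p = 0.0590).

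The H3 genes held 3 risers and 0 fallers among 10 tested members, with a median log2 change of 0.08. The share called was 30.0%, against 67.2% of all tested genes (32.2% higher, 35.0% lower). The 11 genes summed to 35.0 and 28.1 RPKM in controls and 36.1 and 36.8 RPKM after Hnrnpk siRNA, a ratio of 1.15; control replicate 1 lay closer to the Hnrnpk siRNA libraries than to the other control. Hist1h3c had the highest level and was measured at 9.55 and 7.35 RPKM in controls and 10.8 and 11.7 RPKM after Hnrnpk siRNA. It rose by 0.40 (SE 0.110, limma adjusted p = 0.00930), a call lost without the filter on low values and without Hnrnpk siRNA replicate 2. Hist1h3a had the largest rise of any member, 0.43 (SE 0.113, limma adjusted p = 0.00739), from 3.20 and 2.45 RPKM to 4.13 and 3.78 RPKM.

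The third H3 gene that rose was Hist1h3e, by 0.31 (SE 0.112, limma adjusted p = 0.0318), from 4.68 and 3.64 RPKM to 4.98 and 5.53 RPKM. Control replicate 1 lay closer to Hnrnpk siRNA replicate 1 than to the other control, and the call was lost in 5 of the 13 alternatives. The lowest change was that of Hist1h3d, -0.23, at 1.60 and 1.235 RPKM in controls and 1.13 RPKM in both Hnrnpk siRNA libraries, and it was not called. Hist2h3b gave 2.34 and 1.86 RPKM in controls and 2.60 and 2.57 RPKM after Hnrnpk siRNA, a change of 0.25 that was not called (limma adjusted p = 0.0545).

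The H4 genes held the highest levels of the family and the fewest calls. The 13 genes summed to 66.3 and 54.9 RPKM in controls and 56.1 and 63.5 RPKM after Hnrnpk siRNA, so the groups overlapped. Of 12 tested members 0 rose and 1 fell, 8.33% called against 67.2% of all tested genes. Of the 10 tested in the Hist1 cluster, limma called 0, and 0 had an unadjusted p under 0.05. The median standard error was 0.136 over the H4 genes, against 0.104 over the members and 0.0803 over all genes. The part of this lower precision in the few calls was not tested. Hist1h4i, the most abundant member, was measured at 16.4 and 16.6 RPKM in controls and 17.4 and 18.8 RPKM after Hnrnpk siRNA, a change of 0.13 that was not called. Hist1h4d followed at 16.1 and 13.9 RPKM in controls and 14.6 and 17.3 RPKM after Hnrnpk siRNA, with the groups interleaved.

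Hist4h4, the only gene of its cluster, was the H4 gene that fell. It was measured at 3.36 and 4.53 RPKM in controls and 2.44 and 3.095 RPKM after Hnrnpk siRNA, and fell by 0.44 (SE 0.137, limma adjusted p = 0.0170). The lower control lay close to the higher Hnrnpk siRNA library. Its call was lost without the filter on low values (limma adjusted p = 0.231). Without control replicate 2 the change was -0.25 and without Hnrnpk siRNA replicate 1 it was -0.29, and neither was called. The largest positive change among H4 genes was 0.20 in Hist1h4f, at 2.54 and 1.499 RPKM in controls and 2.19 and 2.47 RPKM after Hnrnpk siRNA, with both of the latter between the controls.

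**Figure D3:**
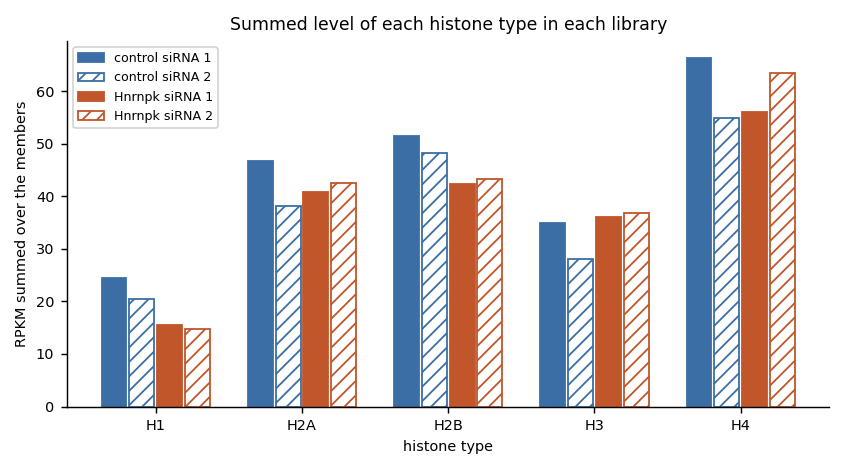
RPKM summed over all members of each histone type, one bar per library (controls blue, Hnrnpk siRNA orange, replicate 2 hatched). The H1 bars are lower in both Hnrnpk siRNA libraries (15.6 and 14.7 RPKM) than in both controls (24.4 and 20.4 RPKM), while for H2A and H4 the control replicates lie on either side of the other libraries.

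Calls were counted by cluster. Over all tested genes 67.2% were called, 32.2% higher and 35.0% lower. The share called was 31.8% in Hist1 and 57.1% in the other clusters together. In Hist1, 8 of 44 tested genes were called higher and 6 lower, with a median log2 change of 0.03. In the other clusters together, 0 of 7 tested genes were called higher and 4 lower, with a median of -0.45 (Hist2h2ac, Hist3h2a, Hist3h2ba and Hist4h4 were called; Hist2h2bb, Hist2h3b and Hist2h4 were not). The 12 genes outside Hist1 summed to 17.2 and 15.2 RPKM in controls and 10.03 and 10.9 RPKM after Hnrnpk siRNA, a ratio of 0.647, against 0.973 for Hist1. The 9 Hist2 genes alone summed to 8.96 and 6.25 RPKM in controls and 6.48 RPKM in both other libraries, a ratio of 0.852 with overlap, and 1 of 4 tested was called. Both genes of the Hist3 cluster fell, and their sum went from 4.88 and 4.37 RPKM to 1.11 and 1.34 RPKM, a ratio of 0.265. Hist2h4 was measured at 0.656 and 0.651 RPKM in controls and 0.654 and 0.818 RPKM after Hnrnpk siRNA. The difference between clusters was not tested.

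The control libraries differed from each other across the family. Control replicate 1 was above control replicate 2 in 42 of the 51 tested members, against 7154 of 12486 tested genes, and the sum over all members was 1.18 times as large. By type this held for 5 of 5 H1, 10 of 11 H2A, 7 of 13 H2B, 10 of 10 H3 and 10 of 12 H4 genes. Hist1h4a differed most, at 4.87 RPKM in control replicate 1 and 2.30 RPKM in control replicate 2, with 2.98 and 3.08 RPKM after Hnrnpk siRNA; its log2 change was -0.13 (SE 0.231) and not called, but was 0.34 without control replicate 1 and -0.60 without control replicate 2. The Hnrnpk siRNA libraries differed less, with replicate 1 above replicate 2 in 17 of 51 members, against 5266 of 12486 tested genes.

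**Figure D4:**
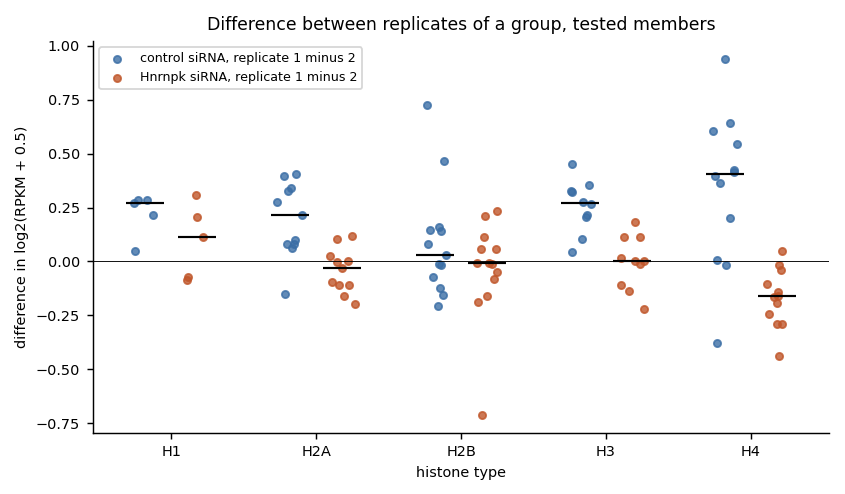
Difference between the replicates of each group in log2(RPKM + 0.5), replicate 1 minus replicate 2, for every tested member by histone type, with the median as a line. Control differences lie above 0 for 42 of 51 members, including 10 of 10 H3 genes, while Hnrnpk siRNA differences do so for 17 of 51. Over all 12486 tested genes they do so for 7154 and 5266.

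The calls were also counted by what the annotation says of the transcripts, a property that the choice of members did not use. In 22 members the longest M21 transcript runs at least 100 bases past the stem-loop; of the 19 tested, 1 was called higher and 5 lower, with a median log2 change of -0.12. In the 22 whose transcript ends sooner after the stem-loop, 17 were tested, 5 called higher and 1 lower, with a median of 0.10. In the 23 with no stem-loop found, 15 were tested, 2 called higher and 4 lower, with a median of -0.07. The shares called were 31.6%, 35.3% and 40.0% in turn, against 67.2% of all tested genes (32.2% higher, 35.0% lower). Hist3h2ba, Hist3h2a, Hist1h1e, Hist1h2bh and Hist4h4 are the 5 fallers whose models run on past the stem-loop.

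AATAAA occurs anywhere in the longest transcript of 23 members. Of the 16 tested, 0 were called higher and 6 lower (Hist3h2ba, Hist1h2bc, Hist3h2a, Hist4h4, Hist1h2bh and Hist1h1a), with a median log2 change of -0.19, against 8 higher and 4 lower of 35 tested without it, with a median of 0.03. The share called was 37.5% with AATAAA, all of it lower, and 34.3% without it. Of these 6 fallers, Hist3h2ba, Hist3h2a and Hist4h4 hold it in the last 50 bases, where Hist1h2bc, Hist1h2bh and Hist1h1a do not. Tested members that hold it there and were not called are Hist1h1c, Hist1h2ae, Hist1h4a, Hist1h4j and Hist2h4. Over all tested genes 67.2% were called, 32.2% higher and 35.0% lower. Counts were also taken by the share of transcript found in no other gene. Of the 29 tested members with at least 50% unique 50-base windows, 3 were called higher and 9 lower, 41.4% called. Of the 22 tested below 50%, 5 were called higher and 1 lower, 27.3% called. These subsets overlap, and the differences between them were not tested.

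Members with the commonest stem-loop were called in both directions. Over all tested genes 32.2% were called higher and 35.0% lower. The sequence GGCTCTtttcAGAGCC is carried by 18 tested members, of which 4 were called higher and 4 lower. The sequence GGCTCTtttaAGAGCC is carried by 5 tested members, of which 2 were called higher and 0 lower, and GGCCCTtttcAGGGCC by 6 tested H4 genes, of which 0 were called higher and 1 lower.

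Promoters are shown for the members that mark the range of responses: the Hist3 genes, which fell together, Hist1h1e, the most abundant faller, Hist1h3c, the most abundant riser, and Hist1h4i, the most abundant member and not called. Each is the RefSeq window on GRCm38.p6 from 250 bases before to 50 bases after the start. Capitals mark CCAAT, the box bound by NF-Y, TATAAA, the core of the TATA box, and ATTTGCAT, the octamer bound by OCT1. Each is marked wherever it occurs in the window, on either strand. A marked TATAAA therefore need not lie where a TATA box works. These letters are matches only and no binding was measured.
Hist3h2ba: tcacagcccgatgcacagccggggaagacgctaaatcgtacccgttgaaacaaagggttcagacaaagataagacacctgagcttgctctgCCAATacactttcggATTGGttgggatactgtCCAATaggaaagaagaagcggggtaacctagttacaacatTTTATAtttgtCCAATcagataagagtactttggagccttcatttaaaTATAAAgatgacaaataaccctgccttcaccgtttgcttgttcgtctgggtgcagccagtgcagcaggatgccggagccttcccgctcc
Hist3h2a: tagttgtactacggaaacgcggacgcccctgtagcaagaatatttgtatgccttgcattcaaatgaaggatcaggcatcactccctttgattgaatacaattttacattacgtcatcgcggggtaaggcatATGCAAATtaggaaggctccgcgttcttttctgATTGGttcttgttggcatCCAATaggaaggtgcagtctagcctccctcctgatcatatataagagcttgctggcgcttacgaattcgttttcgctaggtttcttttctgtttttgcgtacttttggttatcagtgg
Hist1h1e: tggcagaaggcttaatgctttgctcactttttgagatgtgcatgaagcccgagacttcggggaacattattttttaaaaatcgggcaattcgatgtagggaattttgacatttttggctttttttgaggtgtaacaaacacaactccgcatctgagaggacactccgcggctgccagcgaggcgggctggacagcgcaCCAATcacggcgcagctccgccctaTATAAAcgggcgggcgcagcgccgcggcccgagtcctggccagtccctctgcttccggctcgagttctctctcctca
Hist1h3c: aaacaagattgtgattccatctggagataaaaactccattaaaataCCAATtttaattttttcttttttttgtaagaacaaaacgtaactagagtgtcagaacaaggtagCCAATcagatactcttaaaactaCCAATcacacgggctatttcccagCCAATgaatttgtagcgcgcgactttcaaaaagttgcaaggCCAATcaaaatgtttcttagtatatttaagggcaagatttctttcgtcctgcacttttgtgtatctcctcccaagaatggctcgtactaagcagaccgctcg
Hist1h4i: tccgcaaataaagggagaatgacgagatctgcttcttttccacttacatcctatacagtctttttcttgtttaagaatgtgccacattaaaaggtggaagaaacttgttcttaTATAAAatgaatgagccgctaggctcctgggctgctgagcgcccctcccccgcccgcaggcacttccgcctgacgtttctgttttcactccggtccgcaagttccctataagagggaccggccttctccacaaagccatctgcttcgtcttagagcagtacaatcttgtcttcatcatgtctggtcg

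These windows are chr11:58948661-58948960 on the plus strand, chr11:58954435-58954734 on the plus strand, chr13:23622509-23622808 on the minus strand, chr13:23745472-23745771 on the minus strand and chr13:22041313-22041612 on the minus strand, in the order shown. The window of Hist1h3c holds 5 matches of CCAAT and that of Hist3h2ba 4, whereas that of Hist1h4i holds 0.

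A RefSeq promoter was matched for 60 of the 67 members. CCAAT occurred in 85.0% of these windows, against 37.41% of all 32851 promoters in the table, and its presence followed the histone type: 6 of 6 H1, 17 of 17 H2A, 16 of 16 H2B and 9 of 9 H3 promoters held it, but 3 of 12 H4 promoters. TATAAA occurred in 58.3% of the members' windows against 13.62% of all promoters. The octamer ATTTGCAT occurred in 7 of 17 H2A and 6 of 16 H2B windows and in 0 of the other types, 21.7% of the members against 1.74% of all promoters. By call, CCAAT was present in 7 of 7 promoters of members called higher, 8 of 9 of those called lower and 24 of 31 of those not called. TATAAA was present in 2 of 7, 5 of 9 and 21 of 31, and the octamer in 1 of 7, 2 of 9 and 7 of 31.

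Many H2A and H2B genes lie head to head and share the space between their starts. With starts at most 1000 bases apart on opposite strands there were 13 pairs of members, 7 with both genes tested. In 0 of the 7 were both genes called, in 5 only 1 gene was, and in 2 neither. Calls covered 35.3% of tested members, against 67.2% of all genes. With that share, 7 pairs are too few to show whether partners respond together. Hist1h2ak rose by 0.32 while its partner Hist1h2bn, 296 bases away, had a change of -0.16 and was not called. Hist1h2bh fell by 0.42 beside the H3 gene Hist1h3f at 0.14, not called, with starts 660 bases apart. The difference between partners was not tested.

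The machinery that makes and removes histone mRNA was described from a list of 52 genes, of which 50 were tested; 11 were called higher and 11 lower, 44.0% against 67.2% of all genes, and the median log2 change was -0.02. Slbp, the stem-loop binding protein, averaged 36.5 ± 0.170 RPKM in controls (SD, n = 2) against 35.8 ± 0.186 RPKM in the knockdown (SD, n = 2), with a log2 change of -0.03 that was not called. Lsm11, a component specific to the U7 small nuclear RNP, fell from 6.07 and 5.76 RPKM to 2.74 and 2.86 RPKM, by 0.96 (SE 0.0812, limma adjusted p = 7.30e-06). Its partner Lsm10 had a change of -0.11 and was not called, nor was the U7-associated zinc finger gene Zfp473 (0.05). The Lsm11 groups were far apart, while the libraries of each group were close together.

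Npat, the coactivator of histone transcription in the histone locus body, rose by 0.25 (limma adjusted p = 0.00777), from 20.9 and 20.1 RPKM to 25.4 and 23.7 RPKM. The Npat call was lost without the filter on low values (0.0507), with the GC trend removed (0.0612) and without Hnrnpk siRNA replicate 1 (0.0774), each an adjusted p from limma. Casp8ap2, also of that body, was not called (-0.02). Coil, which encodes coilin of the Cajal body, rose by 0.67 (limma adjusted p = 4.29e-05), and Snrpb, a common Sm protein, rose by 0.68 (limma adjusted p = 3.00e-05). Upstream, E2f1, which drives entry into S phase, fell by 0.61, and Ccne1, the cyclin whose kinase phosphorylates NPAT, fell by 0.54 (limma adjusted p = 1.41e-04). Yy1, a transcription factor, rose by 0.46, and Xrn1, the cytoplasmic 5' to 3' exonuclease, fell by 0.52 (limma adjusted p = 6.39e-04). The Xrn1 call was lost without the filter on low values (limma adjusted p = 0.0501).

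Of 40 S phase genes, all tested, 3 were called higher and 19 lower, 55.0% called against 67.2% of all genes, with a median log2 change of -0.15 (Slbp is on this list too). The lowest adjusted p-values were those of Tk1, a thymidine kinase (-1.17, limma adjusted p = 1.51e-06), Nasp, a histone chaperone (-0.80, limma adjusted p = 4.00e-06), and Tyms, the thymidylate synthase (-0.79, limma adjusted p = 8.99e-06). The 3 that rose were the licensing factor Cdt1 (0.30), the flap endonuclease Fen1 (0.22) and the replisome subunit Gins3 (0.20, limma adjusted p = 0.0402). The Gins3 call was lost without the filter and without control replicate 1, Hnrnpk siRNA replicate 1 or Hnrnpk siRNA replicate 2 (adjusted p from 0.119 to 0.173). The summed level was 3854 and 3874 RPKM in controls and 3546 and 3607 RPKM after Hnrnpk siRNA, a ratio of 0.926 without overlap, beside a ratio of 0.947 with overlap for the histone members. Whether the members and the S phase genes differ was not tested.

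Replication-independent histones are the variants made outside S phase as well, mostly from polyadenylated messages; H2afx is known to give a stem-loop message too. Of the 12 members found, 10 were tested, and 1 was called higher and 5 lower, 60.0% called against 67.2% of all genes, with a median log2 change of -0.25. The linker variant gene H1fx was measured at 139.6 and 112.5 RPKM in controls and 40.3 and 44.7 RPKM after Hnrnpk siRNA, and fell by 1.55 (SE 0.0986, limma adjusted p = 1.36e-06), with both control libraries far above both others. H2afx, the variant phosphorylated at DNA breaks, fell by 0.75 (limma adjusted p = 9.87e-06), and H2afy2, a macroH2A gene, by 0.80 (limma adjusted p = 1.78e-05). The 12 summed to 1184 and 1158 RPKM in controls and 947.3 and 1014 RPKM after Hnrnpk siRNA, a ratio of 0.837.

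**Figure D5:**
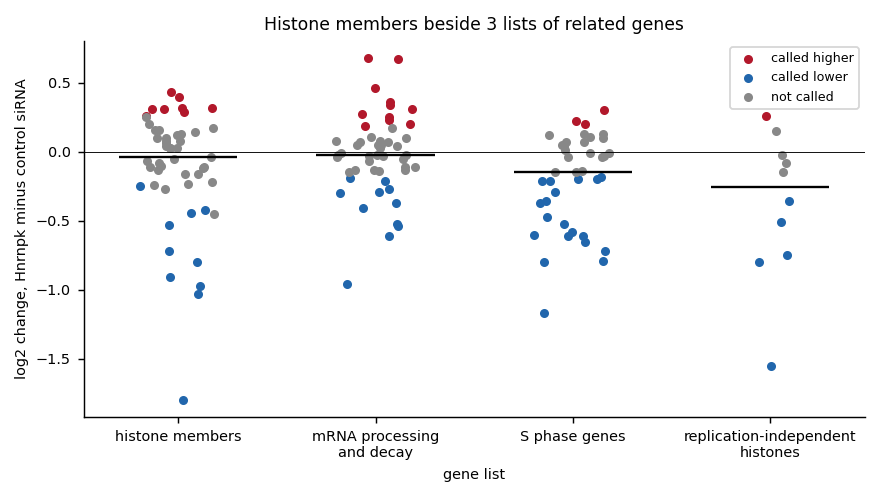
Log2 change (Hnrnpk siRNA minus control on log2(RPKM + 0.5)) of each tested gene among the histone members and the 3 related lists, coloured by limma call, with the median of each as a line. Members called lower reach -1.80 (Hist3h2ba) and members called higher reach 0.43, while the medians run from -0.25 for replication-independent histones to -0.02 for the processing and decay list.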

How the data were processed

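The values were RPKM per gene and library as deposited by the authors. BWA, SAMtools and the build mm9 are named, without version or role, in the submitters' processing notes; how genes were counted, whether strand was used and how multiply mapping reads were handled is not stated in them, which bears on a family in which 31 of 67 members have under 50% unique 50-base windows. Steps of low values gave relative depths of 1 and 0.982 for the controls and 0.892 and 0.881 for the Hnrnpk siRNA libraries, but only 39.8% to 44.5% of values were within 0.02 of a whole number, so no count model was run. At 1 RPKM, a 500-base gene held 62.0, 60.9, 55.3 and 54.6 of these units.

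Genes averaging at least 0.5 RPKM (12486 of 22138) were tested on log2(RPKM + 0.5), which understates changes of low genes, with limma 3.58.1 in R 4.3.3 (mean-variance trend, moderated two-sided tests, Benjamini-Hochberg adjustment over all genes tested). Calls are at an adjusted p under 0.05. Tested on simulated data for this comparison with 12486 genes and 200 changed, limma called 100% of changes of 1 and 99% of changes of 0.5 on the log2 scale, with 10 false calls. The simulated noise followed the trend of spread on level in the controls, without a spread particular to each gene. The simulation therefore does not give power or error rates for the histone members.

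Positions, transcripts and stem-loops came from GENCODE M21 (GRCm38), matched by identifier for 55 members and by symbol for 12, and may differ from the models behind the RPKM values; promoters came from RefSeq. Exons of 25 members overlap those of other genes in M21, mostly predicted miRNA models on the opposite strand. Nelfe, Ice1, H3f3c and H1f0 were not matched in the table, and Dab2 was left out because its symbol matched more than a single row.

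The members and lists were chosen with earlier results of these data known. Any tested member could be named; values per library are given for the highest level and the highest and lowest change of each type, for tested members outside Hist1 and for called members, and others appear where a comparison needs them. Also named are, from the processing list Slbp, Npat, Casp8ap2, Lsm10, Lsm11, Zfp473 and the 6 other called genes of lowest adjusted p; 3 called S phase genes in each direction; and 3 called replication-independent histones. H3f3b and Trim17 were named after their values were seen. Alternatives were an added 0.1 or 1 RPKM, no filter, a mean of at least 1 RPKM, median-ratio scaling, quantile normalization, removal of GC or length trends, a replicate block and leaving out each library.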

Additional observations from a re-analysis of the deposited data

How the results depend on the processing

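The higher calls among members were the most dependent on the processing. As analysed, 8 members were called higher and 10 lower by limma. Without the filter 0 were called higher, with 5 at an unadjusted p under 0.05, while the share of all genes called was 34.1% against 67.2% as analysed, and the 8 called lower included 3 that the filter had left out (Hist1h1t, Hist1h2ba and Hist2h2be). Quantile normalization gave 13 higher calls, removal of the GC trend 19, and removal of the length trend 1 with 16 lower. Leaving out a library, with the lone library of its group assumed to vary like the other group, gave 2 to 14 higher and 8 to 19 lower. Over these settings the median over the members ran from -0.15 to 0.14, and changed sign for H2A, H2B, H3 and H4 under some of them; for H1 it stayed below 0. Hist1h4a had a change of 0.34 without control replicate 1 (adjusted p = 0.00368) and -0.60 without control replicate 2, and Hist1h2an 0.34 with the GC trend removed (adjusted p = 0.0139), each against a negative change as analysed. The processing list had 11 genes called higher, 6 without the filter and 7 to 13 with a library left out. The S phase list had 3, and 5 with either the GC or the length trend removed. The replication-independent list had 1, 0 without the filter or after quantile normalization, 2 with the length trend removed or with the replicate block, and 0 to 1 with a library left out. The cause of these changes was not tested.

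Same-numbered libraries did not deviate together (r = 0.0267 over 12486 genes, genes not being independent), so the numbers were not taken as pairs; with the replicate block, 9 members were called higher and 11 lower. At 0.5 RPKM a short histone gene rests on few fragments, and the number of reads behind each value is not known exactly.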
